A study of Mus musculus with 9 samples.

Results

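The genes described here encode the subunits of the proteasome with its activators, inhibitor and assembly chaperones. They were taken as the protein-coding genes whose GENCODE M1 symbol starts with Psma, Psmb, Psmc, Psmd, Psme, Psmf or Psmg and a digit, without the inducible subunits *Psmb8*, *Psmb9* and *Psmb10*. Of 48 annotated genes with such a symbol, 45 were listed in both deposited tables, among 12505 protein-coding genes and 13259 genes of all kinds listed in both. The 3 others were *Psma8* and *Psmb11*, whose proteins replace ordinary subunits in testis and thymus, and a second gene identifier of the symbol *Psmd14*, and none of them was listed in either table. The symbol rule also took *Psmc3ip*, a factor of meiotic recombination, and *Psme2b-ps*, a single-exon gene named after the activator gene *Psme2*, and both are described apart below but counted in every total over the members.

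RNA was sequenced from 9 libraries of AML12 cells, an immortalised line that was derived from hepatocytes of a mouse carrying a transforming growth factor alpha transgene. 3 libraries came from cells with a control hairpin, 3 from cells with shRNA 1 against *Srrm2* and 3 from cells with shRNA 2 against *Srrm2*, all after 5 days of lentiviral infection in medium with dexamethasone and an insulin, transferrin and selenium supplement. *Srrm2* encodes a scaffold protein of nuclear speckles, and the study depleted it to examine the organisation of the genome in the nucleus, with RNA-seq as one of its assays. Nothing in the labels says that the libraries of a group came from separate cultures.

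The value used for each gene is its mean normalized count, given once for the 6 libraries of control and shRNA 1 and once for the 6 libraries of control and shRNA 2. The same 3 control libraries entered both means. No value per library was used, so the values below carry no replicate error and no comparison was tested. A level is the mean normalized count, per kilobase of the longest coding transcript where genes are compared with each other. A centred log2 ratio is the log2 of the mean of the shRNA 2 table over that of the shRNA 1 table, less the median of 7693 protein-coding genes whose means in both tables reached 100. That median was 0.07 on the log2 scale, a factor of 1.05. As far as the control libraries cancel, a ratio above 0 means a higher level with shRNA 2 than with shRNA 1, and the ratio between the hairpin groups lies farther from 0 than the ratio of the pooled means. A change against the control that both hairpins share does not show in it.

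The tables listed 13424 and 13478 genes with summed means of 6144608 and 6393456. All 9 hepatocyte markers were listed, from a mean of 39.4 for *Apoa1* to 20192 for *Apob* in the table of shRNA 1. Of the listed markers of leukocytes, endothelium and fibroblasts or stellate cells, *Cd68* was the highest at 25.1, while *Cd3e*, *Pecam1*, *Cdh5*, *Dcn* and *Pdgfrb* were not listed in both tables. *Srrm2* had means of 3428 and 3759 and a centred log2 ratio of 0.07, which compares the hairpins with each other and says nothing of its level against the control.

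The proteasome is the protease complex that degrades proteins marked with ubiquitin. Its 20S core is a barrel of outer alpha rings, which gate the entry, and inner beta rings, which hold the catalytic sites, and in the 26S particle it is capped by the 19S regulatory particle. The base of the 19S particle unfolds substrates with a ring of ATPases, and its lid removes the ubiquitin. As subunits are built into the particle in fixed numbers, their genes are known to be controlled together, in mammals by the factor Nfe2l1, which acts through antioxidant response elements in their promoters when proteasome activity falls short.

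The promoters of 4 members are shown because they differ in whether and where they hold that element: *Psmb5* and *Psmb6*, catalytic subunits of the beta ring with the response element core close to the start, *Psmc6*, an ATPase with the core far from the start, and *Psmc1*, an ATPase whose 250 bases hold an Ets site and no such core. Each run is the 250 bases before the RefSeq start, read 5′ to 3′ on the strand of the gene and placed on NCBIM37 by an exact match. Capitals mark matches on either strand of TGACNNNGC (the response element core), CCGGAAG (an Ets site) or AAGATGG (a YY1 core).
Psmb5 promoter, chr14:55236833-55237082, minus strand: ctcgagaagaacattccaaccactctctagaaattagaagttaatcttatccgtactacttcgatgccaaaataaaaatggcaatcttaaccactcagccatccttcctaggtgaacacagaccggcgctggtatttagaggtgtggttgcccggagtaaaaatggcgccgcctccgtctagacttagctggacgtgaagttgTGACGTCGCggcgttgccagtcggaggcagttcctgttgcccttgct
Psmb6 promoter, chr11:70338609-70338858, plus strand: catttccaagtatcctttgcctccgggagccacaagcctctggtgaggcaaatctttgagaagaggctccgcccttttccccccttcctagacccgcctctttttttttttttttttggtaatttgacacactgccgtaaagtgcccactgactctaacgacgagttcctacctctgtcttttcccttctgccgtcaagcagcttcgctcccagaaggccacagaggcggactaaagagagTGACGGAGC
Psmc6 promoter, chr14:45949249-45949498, plus strand: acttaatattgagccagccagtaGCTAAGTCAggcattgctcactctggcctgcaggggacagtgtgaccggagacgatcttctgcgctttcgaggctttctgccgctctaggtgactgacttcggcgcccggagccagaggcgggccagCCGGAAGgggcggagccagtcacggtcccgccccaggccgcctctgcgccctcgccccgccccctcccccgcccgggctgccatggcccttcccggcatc
Psmc1 promoter, chr12:101348162-101348411, plus strand: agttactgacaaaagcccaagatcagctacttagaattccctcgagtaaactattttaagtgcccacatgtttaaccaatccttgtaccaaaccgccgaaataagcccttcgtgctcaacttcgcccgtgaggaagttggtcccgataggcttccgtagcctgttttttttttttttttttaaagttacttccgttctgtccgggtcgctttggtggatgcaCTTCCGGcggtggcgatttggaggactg

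In *Psmb5* the match TGACGTCGC lay 47 to 39 bases before the start, and in *Psmb6* TGACGGAGC lay 9 to 1 bases before it. The core of *Psmc6* was on the other strand, read as GCTAAGTCA, 227 to 219 bases before the start, with the Ets site 100 to 94 bases before it. The Ets site of *Psmc1* was also on the other strand, as CTTCCGG, 28 to 22 bases before the start.

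RefSeq promoters of 300 bases, from 250 before to 50 after the start, were matched for 38 of the 45 members. The core TGACNNNGC was in the promoters of 6, namely *Psmb5*, *Psmb6*, *Psmc6*, *Psmd9*, *Psmd12* and *Psme4*. That was 15.8% (Wilson 95% interval 7.44% to 30.4%), beside 17.2% of 8747 listed protein-coding genes and 14.0% of 27025 genes with a promoter. CCGGAAG was in 15 members, *Psmc3ip* among them, or 39.5% (25.6% to 55.3%), beside 19.8% of the listed genes and 9.93% of all. AAGATGG was in 8 members, *Psme2b-ps* among them, or 21.1% (11.1% to 36.3%), beside 8.31% of the listed genes and 7.28% of all, and with the 250 bases before the start alone it was in 4 members or 10.5% (4.17% to 24.1%), beside 5.10% of the listed genes. A CCAAT box was in 34.2% of members and 43.8% of listed genes, the GC box GGGCGG in 57.9% and 68.4%, and TATAAA in 7.89% and 8.92%. Both strands were searched, none of these motifs contains another, and the intervals cover counting error over the members only. The Ets and YY1 shares of the listed genes lay below the members' intervals, and those of the other 4 motifs lay within them. With the 250 bases before the start alone, the YY1 share of the listed genes lay within the members' interval. The listed genes were not matched to the members in level, and the intervals make no allowance for the number of motifs. A match is a run of letters and no evidence of binding.

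**Figure D1:**
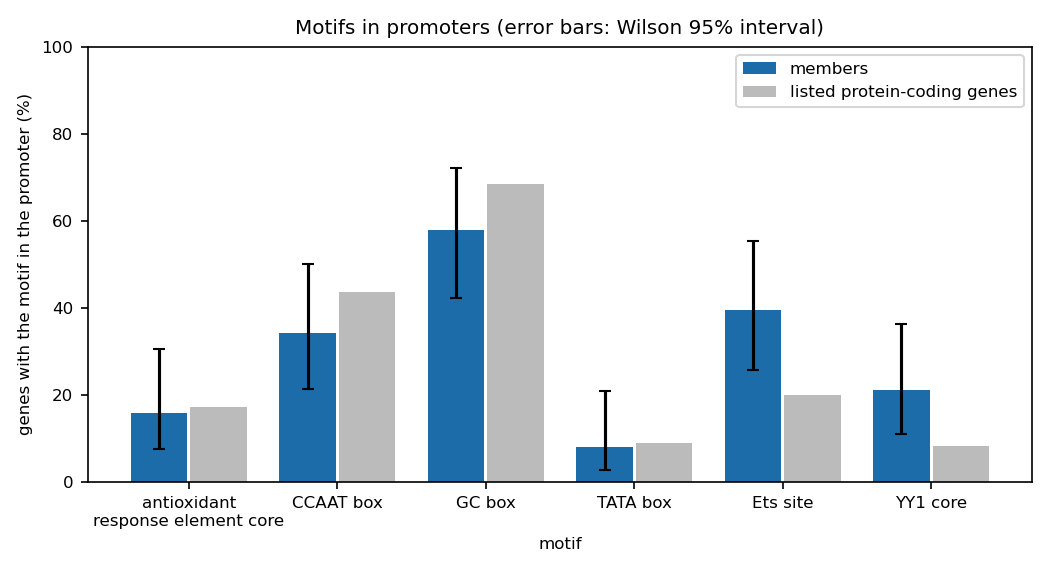
Share of genes with each motif in the promoter, in percent, for the 38 members with a RefSeq promoter (blue, with Wilson 95% intervals) and 8747 listed protein-coding genes (grey). The Ets site was in 39.5% of members and 19.8% of listed genes, and the response element core in 15.8% and 17.2%.

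The 6 members with the response element core had a median level of 227 mean normalized counts per kilobase and a median centred log2 ratio of 0.04, and the 32 without it, which include *Psmc3ip* and *Psme2b-ps*, 300 and -0.0031. Levels of the 6 ran from 40.9 to 486 and their ratios from -0.16 to 0.17, on both sides of 0. The 32 ran from 2.87 to 1549 and from -0.29 to 0.78. The difference of the medians was not tested. *Nfe2l1* itself had mean normalized counts of 1876 and 2366, a centred log2 ratio of 0.27, above that of 97.0% of genes with a mean of at least 100. *Vcp*, which draws the Nfe2l1 protein out of the membrane of the endoplasmic reticulum, had means of 2597 and 2997 and a centred log2 ratio of 0.14. *Ddi2*, the protease that cleaves Nfe2l1 into its active form, had means of 681 and 626 and a centred log2 ratio of -0.19. *Ngly1*, which removes its sugar chains, had -0.03, and the related factor *Nfe2l2* had -0.04.

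Nearly all subunit genes were expressed at a similar and high level. The 31 genes of the 26S particle had a median of 346 mean normalized counts per kilobase in the table of shRNA 1, and 29 of them lay within 2-fold of it. With merged exon lengths the count within 2-fold of the median was 29, and with the median length of coding transcripts 28. The share of all genes within 2-fold of their own median was not counted. The SD of the log2 levels was 0.64 over the 31 genes, against 1.40 over the protein-coding genes with a mean of at least 100. All 31 were above the median of the protein-coding genes, 61.0. Of all 45 members, 39 were above that median and 37 were above 75% of those genes. With the longest transcript the exceptions among the 26S genes were *Psmd8* at the top and *Psma3* at the bottom. With the median length of coding transcripts the level of *Psma3* was 279. Without *Psmd8* the highest level for the longest transcript was 4.06 times the lowest. The 8 genes of the chaperonin, another complex with subunits in fixed numbers, had a median of 751 and a highest level 2.79 times the lowest. Such a range tends to widen with the number of genes. The SD of the log2 levels was 0.49 for the chaperonin, against 0.64 for all 31 genes of the 26S particle. The means of all members summed to 23533 in the table of shRNA 1, which was 0.410% of the protein-coding total, and the share was 0.411% in the table of shRNA 2.

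**Figure D2:**
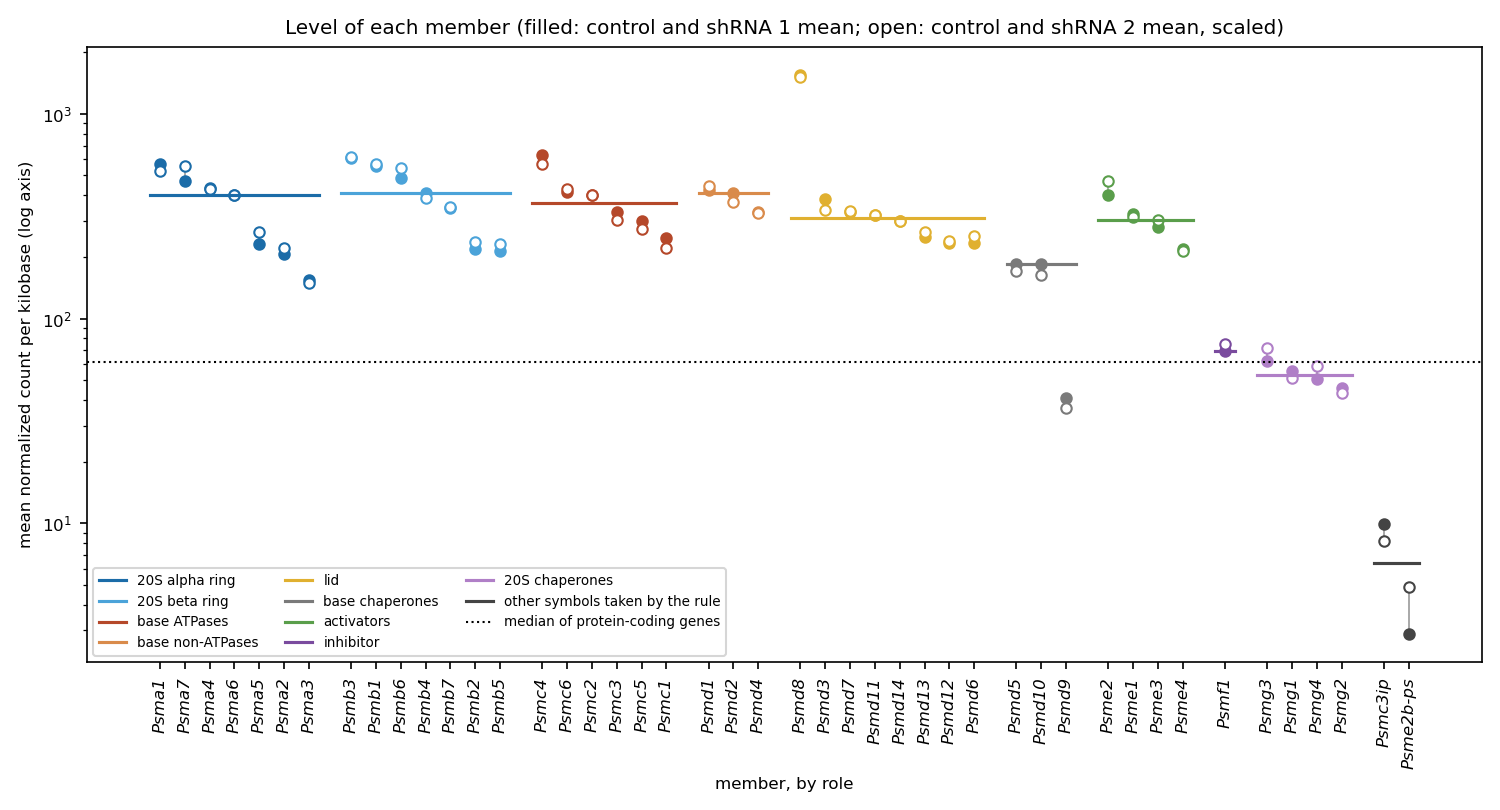
Level of each member in mean normalized counts per kilobase on a log axis, in the table of shRNA 1 and, scaled by 1.05, in that of shRNA 2, grouped by role. The 26S subunits lie between 155 and 1549 in the table of shRNA 1, and the 4 chaperones of the 20S core between 45.9 and 61.8.

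These levels depend on which transcript length is used. With merged exon lengths the medians were 213 for the alpha ring, 207 for the beta ring and 165 for the lid, and with the median length of coding transcripts that of the activators was 786 and that of the lid 487. The highest and lowest genes of each role, given below for the longest transcript, were the same with all 3 lengths for 4 of 16 such places, *Psmc4*, *Psmd8*, *Psmd6* and *Psmd9*. With merged exon lengths *Psmb3* had a level of 203 and *Psmb1* was the highest of the beta ring at 554. With the median length the order of the activators turned, *Psme4* being the highest at 1334 and *Psme2* the lowest at 487, and *Psmd11* came next to *Psmd8* in the lid at 1151.

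The alpha ring, whose subunits form the outer gate of the barrel, had a median level of 401 per kilobase over 7 genes. *Psma1* was the highest, with mean normalized counts of 686 and 665 in the tables of shRNA 1 and shRNA 2 and a level of 571 in the first. *Psma3* was the lowest at 155, with means of 440 and 447. *Psma7* had the highest ratio among members with a mean of at least 100. Its means were 432 and 530, a centred log2 ratio of 0.23 that exceeded that of 95.5% of such genes, and the implied difference between the hairpin groups was 149 normalized counts, or 34.6% of the first mean. *Psma5* was also higher in the table of shRNA 2, at 287 and 346, a centred log2 ratio of 0.20. *Psma1* went the other way at -0.11, so the ratios within the ring spread from -0.11 to 0.23.

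The beta ring had a median level of 409 over 7 genes, and its ratios were above 0 for 6 of them. By the choice of the centre, so were 3847 of the 7693 genes with a mean of at least 100. *Psmb3*, a structural subunit, was the highest at 611 per kilobase, with means of 468 and 492. Its ratio was 0.0038, and the sign turned with another scaling. *Psmb5*, which carries the chymotrypsin-like site, was the lowest at 214, with means of 186 and 212 and a centred log2 ratio of 0.12. *Psmb6*, which carries the caspase-like site, had means of 388 and 456 and the highest ratio of the ring, 0.17. *Psmb7*, which carries the trypsin-like site, had means of 401 and 424 and a ratio of 0.01. *Psmb4* was the member below 0, with means of 483 and 479 and a ratio of -0.08.

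The inducible counterparts of these catalytic subunits, which form the immunoproteasome of immune and interferon-treated cells, were far lower. *Psmb8*, the counterpart of *Psmb5*, had means of 12.8 and 15.3, and the level per kilobase of *Psmb5* was 27.3 times its level in the table of shRNA 1 and 25.9 times in that of shRNA 2. The count of *Psmb5* is uncertain, as 99.9% of its transcript was matched elsewhere in the genome. *Psmb10*, the counterpart of *Psmb7*, had means of 79.3 and 96.3, and *Psmb7* was 5.54 and 4.83 times as high. At 62.4 per kilobase in the table of shRNA 1, *Psmb10* lay close to the median of the protein-coding genes, 61.0. *Psmb9*, the counterpart of *Psmb6*, was not listed in both tables. The leukocyte gene *Ptprc* had means of 5.30 and 5.47.

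The 6 ATPases of the base, which unfold the substrate and thread it into the core, had a median level of 367. *Psmc4* was the highest at 627 per kilobase, with means of 903 and 861 and a centred log2 ratio of -0.14. *Psmc1* was the lowest at 246, with means of 374 and 351 and a ratio of -0.16. Of the other ATPases, *Psmc3* had -0.14 and *Psmc5* -0.12, while *Psmc2* was near 0 and *Psmc6* at 0.05. The median ratio of the ATPases was -0.13, the lowest of any ring or subcomplex of the 26S particle.

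The 3 other base subunits had a median level of 412 per kilobase. *Psmd1*, a large scaffold subunit, was the highest at 427, with means of 1329 and 1456 and a ratio of 0.06. *Psmd2*, the other large scaffold subunit, had means of 1221 and 1157 and a ratio of -0.15. *Psmd4*, a receptor for ubiquitin, was the lowest at 331, with means of 580 and 603 and a ratio of -0.01.

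The lid had a median level of 311 over 8 genes. *Psmd8*, a structural subunit of the lid, had the highest level of any member at 1549 per kilobase, 2.47 times that of *Psmc4*, the next. Its means were 2342 and 2407 and its ratio -0.03. *Psmd6* was the lowest at 234, with means of 323 and 366 and a ratio of 0.11, close to *Psmd12* at 235. *Psmd14*, the deubiquitinase of the lid, had means of 464 and 485 and a level of 301, and a second annotated gene of the same symbol overlaps its exons. *Psmd3*, a structural subunit, had the lowest ratio among members with a mean of at least 100. Its means were 827 and 760, a centred log2 ratio of -0.19, below which 9.01% of such genes lay, and the implied difference between the hairpin groups was -202 normalized counts, or -24.5% of the first mean.

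The 4 genes of the chaperones that assemble the 20S core were lower than the subunits, with a median of 53.2 per kilobase, and the median of the 20S subunits was 7.61 times as high. *Psmg3* was the highest at 61.8 and had means of 51.9 and 63.3, a ratio of 0.22. *Psmg2* was the lowest at 45.9, with means of 59.7 and 59.1 and a ratio of -0.08. *Psmg4* had means of 28.1 and 33.9 and a ratio of 0.20, and *Psmg1* had a ratio of -0.12. So 2 of the 4 ratios were above 0 and 2 below. All 4 genes had means below 100, and for means of 10 to 100 the SD of the ratio over genes was 0.28. The 3 chaperones of the base had ratios below 0, as had 6059 of the 12505 protein-coding genes. With only 3 genes this was not tested. *Psmd5* was the highest at 186 per kilobase, with means of 375 and 360 and a ratio of -0.13. *Psmd10*, also known as gankyrin, had means of 263 and 245 and a ratio of -0.17. *Psmd9* was the lowest at 40.9, with means of 106 and 99.6 and a ratio of -0.16.

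Of the activators, which open the core in place of the 19S particle, *Psme2* was the highest at 403 per kilobase and *Psme4* the lowest at 220. *Psme1* and *Psme2* encode partners in one ring and lie 5.91 kb apart on chromosome 14 (mm9, 56196960 to 56200366 and 56206278 to 56209950), yet their ratios differed. *Psme1* had means of 360 and 364 and a ratio of -0.05. *Psme2* had means of 387 and 476 and a ratio of 0.23, but its count is uncertain, as 82.5% of its transcript was matched elsewhere in the genome. *Psme3*, the nuclear activator, had means of 744 and 850 and a ratio of 0.12, and *Psme4*, a large single-chain activator, 1425 and 1460 and a ratio of -0.03. *Psmf1*, an inhibitor of the core, had a level of 69.5 with means of 265 and 299 and a ratio of 0.11.

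Of the symbols that the rule took beside the proteasome, *Psmc3ip* had means of 12.9 and 11.0 and a ratio of -0.29, and *Psme2b-ps* 2.40 and 4.30 and a ratio of 0.78. These were the lowest and the highest ratio of any member. Below a mean of 10 the SD of the ratio over genes was 0.52, against 0.16 for means of 100 to 500.

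Across the members the ratios were centred where those of all genes were. Their median was 0.0020, and it lay between -0.0044 and 0.014 under other scalings. Of the 38 members with a mean of at least 100, 20 or 52.6% were above 0, as were 3847 of the 7693 such genes by the choice of the centre. Above the upper quartile of those genes, 0.08, lay 10 members or 26.3%, where 25.0% of genes did, and below the lower quartile, -0.09, lay 9 members or 23.7%, where 25.0% did. These shares are near those of all genes. The sign of the ratio turned with another scaling for 6 members close to 0, *Psma6*, *Psmb3*, *Psmc2*, *Psmd4*, *Psmd11* and *Psmd14*.

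**Figure D3:**
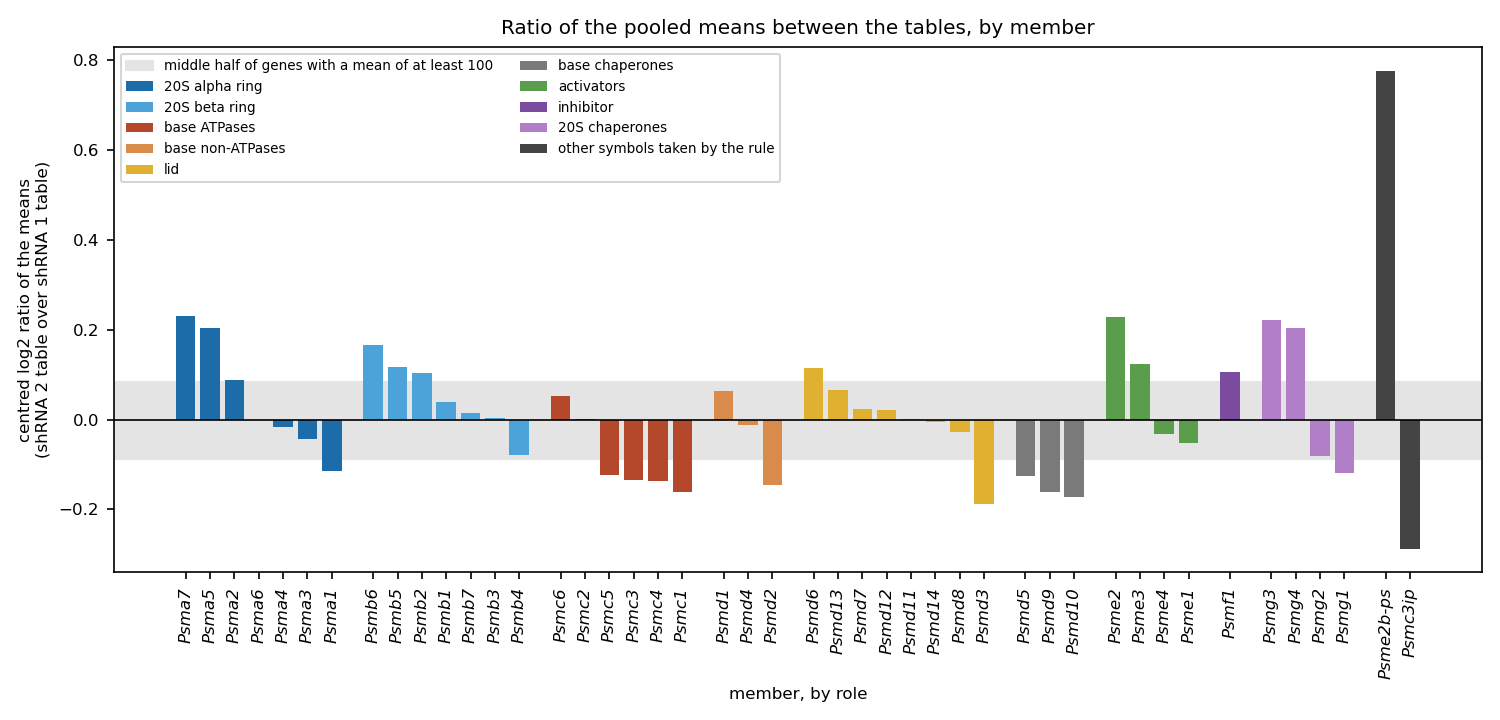
Centred log2 ratio of each member, table of shRNA 2 over table of shRNA 1, grouped by role. *Psma7* and *Psme2* lie at 0.23 and *Psmd3* at -0.19, and the 3 base chaperones lie between -0.17 and -0.13.

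**Figure D4:**
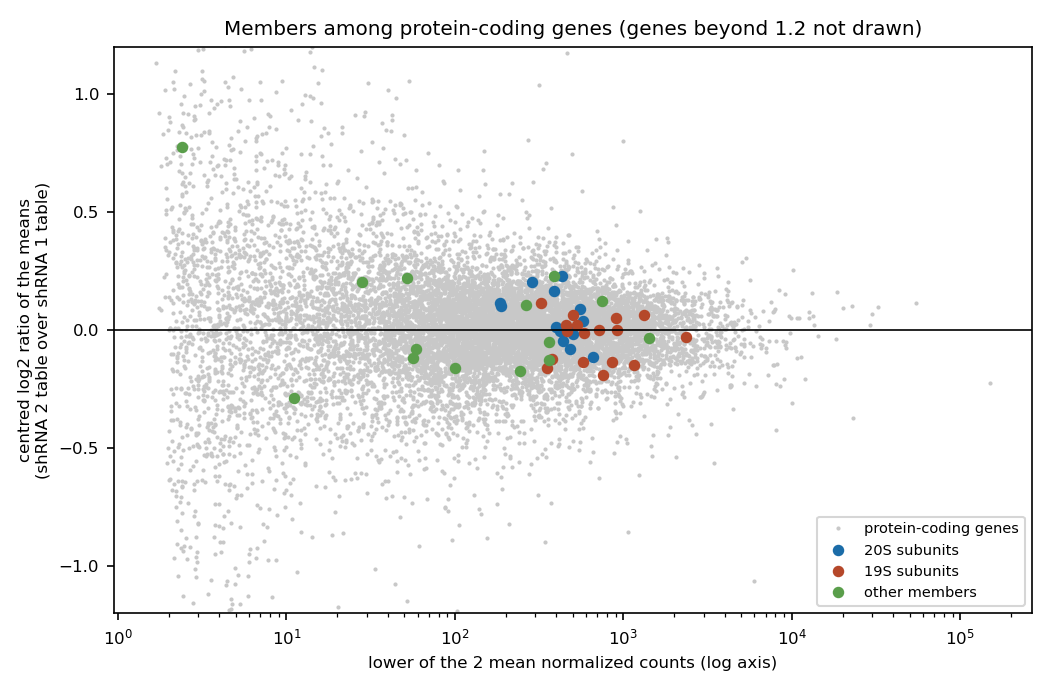
Centred log2 ratio against the mean normalized count on a log axis, with the members over the protein-coding genes listed in both tables. The members with a mean of at least 100 lie between -0.19 and 0.23, within the cloud of all genes, and 60 genes beyond 1.2 in either direction are not drawn.

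Within the particle the counts beyond the quartiles were unlike for the core and the regulatory particle, while the medians, 0.03 and -0.0044, were both near 0. Of the 14 genes of the 20S core, 6 or 42.9% were above the upper quartile and 1 below the lower, and of the 17 genes of the 19S particle, 1 or 5.88% was above and 6 or 35.3% below, where 25.0% of genes lay on each side. The members of the core above the quartile were *Psma2*, *Psma5*, *Psma7*, *Psmb2*, *Psmb5* and *Psmb6*, and those of the regulatory particle below it were *Psmc1*, *Psmc3*, *Psmc4*, *Psmc5*, *Psmd2* and *Psmd3*. Of the 19S genes, 8 were above 0 and 9 below, and the median of the alpha ring was -0.0017 and that of the lid 0.01. These counts were chosen after the values were seen and were not tested.

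Some members share sequence with other places in the genome, and only uniquely mapped reads were counted. At least 50% of the transcript was matched elsewhere at 95% identity for 7 members, *Psma4*, *Psma5*, *Psmb3*, *Psmb5*, *Psmd2*, *Psmd11* and *Psme2*, so their counts are uncertain. For *Psmb5* the matched share was 99.9% and for *Psma4* 99.7%. Below 50%, it was 47.8% for *Psmc1* and 40.1% for *Psma3*, the lowest of their roles with the longest transcript. The median level of these 7 was 403 per kilobase and that of the other 38 members 289, and the medians of their ratios were 0.0038 and -0.0031. These groups were not matched by role, as the 38 include the 4 chaperones of the 20S core, *Psmf1*, *Psmc3ip* and *Psme2b-ps*. Without the 7 members, 4 of 10 core genes were above the upper quartile and 1 below the lower, and of 15 genes of the 19S particle 1 was above and 5 below. Exons of 12 members overlapped another annotated gene, such as *Sirt3* at *Psmd13* and *Nek6* at *Psmb7*. The effect of copies and overlaps on the counts was not tested.

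The members were spread over 16 chromosomes, with 10 on chromosome 11, 6 on chromosome 2 and 5 on chromosome 14. On chromosome 3, *Psmb4* (mm9, 94688015 to 94690883) and *Psmd4* (94836616 to 94846536) lay 146 kb apart, with ratios of -0.08 and -0.01. The longest coding transcripts of the members had a median length of 1430 bases, against 2920 for the listed protein-coding genes, with a median of 9 exons in both and a median GC content of 49.8% and 50.3%.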

How the data were processed

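The 9 libraries were grouped by their titles. The authors aligned trimmed reads with TopHat2 (mm9), retained unique concordant pairs, obtained counts per GENCODE M1 gene from HTSeq and then ran DESeq2 (1.8.2). Of their output only 1 signal column per comparison, as the authors deposited it, was used, the mean of size-factor-normalized counts over 6 libraries. The deposited columns of the authors' own comparisons (log2 fold change, standard error, statistic, p-value, adjusted p-value) were not used. With no value per library there is no error, no library depth and no test, and PCR duplicates or batches could not be examined.

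The mean in the table of shRNA 2 was divided by 1.05, which sets the median log2 ratio of the 2 tables to 0 over the 7693 protein-coding genes whose means in both tables reached 100. This step was run on simulated counts in which both tables shared identical control values and differed by a constant factor. That setting cannot show how far the control libraries cancel when each table has its own size factors. Levels were divided by the length of the longest coding GENCODE M1 transcript (NCBIM37, the assembly of mm9). Copies were alignments of at least 100 bases at 95% identity outside the gene (BLAST 2.17.0). RefSeq promoters (GRCm38.p6) ran from 250 bases before to 50 after the start. Python 3.11.15, numpy 2.4.6, pandas 2.3.3, scipy 1.17.1 and matplotlib 3.10.9 were used. Other scalings, lengths and windows are in the closing section.

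Members named are the highest and lowest per role, the catalytic subunits, and the 5 highest and 5 lowest ratios. Others are named where a count or sequence needed them, after their values were seen. The members, roles and lists were chosen with earlier results of these data known. Some genes of these lists are not reported here.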

Additional observations from a re-analysis of the deposited data

How the results depend on the processing

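The median centred log2 ratio of the members was 0.0020 and lay between -0.0044 and 0.014 with the ratios centred on all protein-coding genes, centred on genes with a mean of at least 1000, or scaled by the summed means, and was 0.0021 without *Psmc3ip*. Its sign turned with the first of these. The number of members above 0 was 23, and 20 to 26 with these scalings. The share of the summed means held by the members was 0.410%, and 0.383% with all listed genes as the total. With merged exon lengths the median level per kilobase was 213 for the alpha ring, 207 for the beta ring, 265 for the base non-ATPases, 165 for the lid, 109 for the base chaperones, 195 for the activators and 41.1 for the inhibitor. With the median length of the coding transcripts it was 445 for the base non-ATPases, 487 for the lid, 187 for the base chaperones, 786 for the activators and 102 for the inhibitor. The level of the inhibitor in the table of shRNA 2 was 74.8. With the 250 bases before the start alone, 10.5% of member promoters held AAGATGG. The share of listed genes then lay within the members' interval. With 8 or fewer genes a role, the medians do not fix the order of the roles. The count of 26S subunits within 2-fold of their median was 29, 29 and 28 with the 3 lengths, a comparison chosen after seeing the data. Levels and ratios carry no error between libraries, so differences of a few percent between members cannot be weighed. No paired analysis was possible because the values used are means over libraries, and for the same reason no library could be left out.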

Other observations

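Beyond the subunits, 11 genes for proteasome proteins of other names were in both tables. Their levels in the table of shRNA 1 ranged from 48.9 to 681 mean normalized counts per kilobase, with a median of 196. *Shfm1*, the small lid subunit also known as Sem1, had the highest. *Zfand2a*, a stress-inducible protein that binds the proteasome, had mean normalized counts of 451 and 358 in the tables of shRNA 1 and shRNA 2, a centred log2 ratio of -0.40. Only 1.22% of the genes with a mean of at least 100 lay below it. *Uchl5*, a deubiquitinase bound to the base, had means of 90.5 and 81.9 and a centred log2 ratio of -0.21.

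*Ubb*, which encodes polyubiquitin, had mean normalized counts of 5356 and 6947, a centred log2 ratio of 0.31. *Ubqln4*, whose protein carries ubiquitinated substrates to the proteasome, had means of 474 and 486 and a centred log2 ratio of -0.03. These are pooled means with no error, and no test was made.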
